A study of Cochliomyia hominivorax with 18 samples.

Results

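Midgut RNA of the New World screwworm, Cochliomyia hominivorax, holds a group of abundant transcripts that stood several-fold higher in larvae than in adults without being limited to larvae. The group was chosen by a rule on the control libraries. A transcript was a member if its mean level in the 3 control larval libraries was at least 50 CPM (read counts scaled to a common library total) and if that mean was at least 4 and below 16 times the mean of the 3 control adult libraries, with 0.1 CPM added to both. The rule found 167 of the 22420 predicted transcripts listed, or 7.24% of the 2308 transcripts at or above 50 CPM in control larvae. Because the control values chose the members, the control levels and their ratio are given here as a description and nothing is supported with them.

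The samples were midguts of production flies in 6 groups of 3 libraries. In each of 2 stages, larva and adult, the control group was taken before tetracycline was used in rearing, the on-Tc group during its use and the post-Tc group after it. Tetracycline, an antibiotic that blocks bacterial protein synthesis, is also used to keep conditional lethal transgenes switched off, and the study asked about lasting effects of rearing with it on the gut. Strain, sex, age, diet, dose and the number of guts in a library were not stated in the labels, and nothing says that libraries 1 to 3 came from separate animals, so the p-values below measure only the spread between these libraries, which may be technical. Control, on-Tc and post-Tc animals also differ in when they were taken, and time and treatment cannot be told apart. Larval libraries held 30221028 to 78052370 counts each, and adult libraries 19158409 to 79783813. The table gives a gene number and a transcript number with no gene names, so functions cannot be given and the tissue could not be checked against its marker genes.

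The insect midgut secretes digestive enzymes, absorbs nutrients, and lines its lumen with a peritrophic matrix that separates food and microbes from the epithelium. Screwworm larvae feed and grow in the wounds of living mammals, while adults take liquid food. In Drosophila melanogaster, the larval midgut epithelium is removed at metamorphosis and an adult epithelium is built from progenitor cells. In bulk libraries of this kind, a lower level from fewer cells of a type and one from less RNA per cell cannot be told apart.

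Together the 167 transcripts made up 12.1% ± 0.559 of counts in control larvae, 10.8% ± 1.85 in on-Tc larvae and 11.5% ± 1.45 in post-Tc larvae (SD, n = 3 each). In adults the same transcripts took 1.83% ± 0.416 of counts in controls, 1.96% ± 0.282 on-Tc and 1.55% ± 0.315 post-Tc (SD, n = 3 each). By library the share ran from 8.66% to 12.7% in the 9 larval libraries and from 1.18% to 2.28% in the 9 adult libraries, without overlap. For the controls this gap follows from the rule, and for the other 12 libraries it does not.

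**Figure D1:**
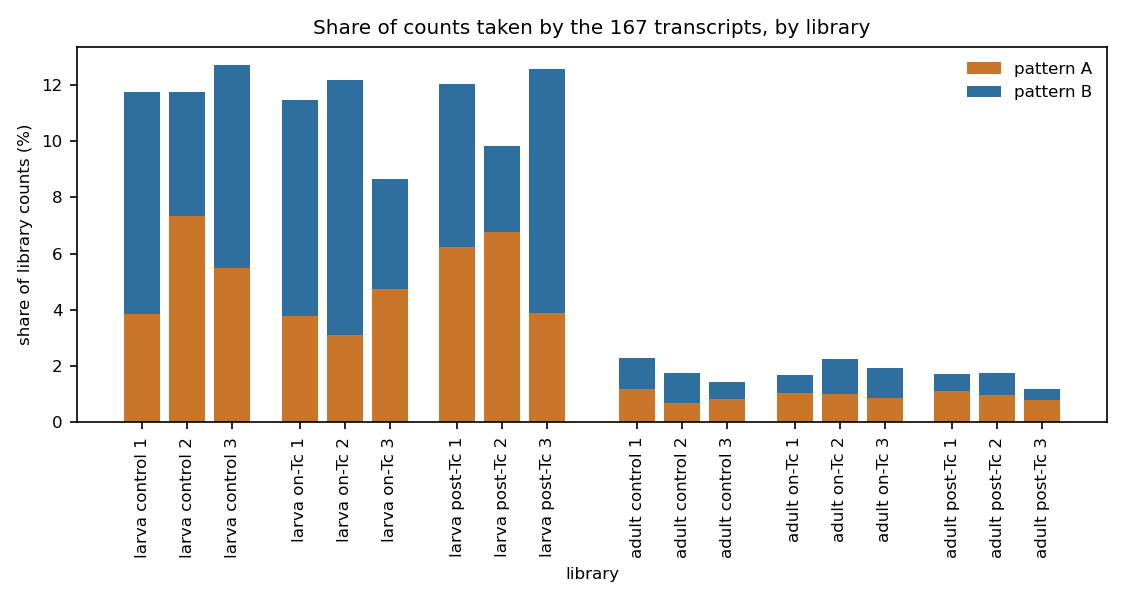
Share of each library's counts (%, vertical axis) taken by the 167 transcripts in the 18 libraries (horizontal axis), stacked by the 2 groups of transcripts, A and B, that are described further on. The total lies between 8.66% and 12.7% in larvae and between 1.18% and 2.28% in adults, while the division between A and B varies among larval libraries.

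The values that chose the members covered a wide range of levels. In control larvae the member means ran from 50.3 to 13999 CPM, with a median of 219 CPM, and 23 of the 167 reached 1000 CPM. In control adults they ran from 4.30 to 2812 CPM, with a median of 33.3 CPM. The larva to adult ratio in controls had a median of 6.88, with 103 members below 8 and 64 at 8 or above. A few members carried much of the summed share: the 10 with the most counts took 47.8% of all member counts in control larvae, which is 5.77% of all counts there. Transcript lengths were not at hand, so these shares say how reads were divided and do not rank transcripts by molecules.

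The transcript that took the most counts in control larvae was g12853.t1, with 1.40% of them. Its levels were 4096, 19849 and 18051 CPM in control larvae, 5168, 5244 and 5018 CPM in on-Tc larvae and 16303, 4385 and 6670 CPM in post-Tc larvae. In adults it stood at 4417, 2294 and 1726 CPM in controls, 2895, 1499 and 2104 CPM on-Tc and 2345, 1840 and 1101 CPM post-Tc. Control larvae 2 and 3 and post-Tc larva 1 stood far above the other 6 larval libraries, and control adult 1 lay above control larva 1 and post-Tc larva 2. Its stage difference on the log2 scale (larva minus adult) was 1.14 ± 0.50 (SE) on-Tc and did not pass the threshold (edgeR FDR 0.119), while post-Tc it was 2.42 ± 0.52 (edgeR FDR 0.0059).

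The next transcript, g19170.t1, with 0.761% of control larval counts, was separated in every library. Its larval levels were 8627, 5717 and 8497 CPM in controls, 7569, 8469 and 4221 CPM on-Tc and 6554, 4276 and 8351 CPM post-Tc. Its adult levels were 479, 916 and 448 CPM in controls, 679, 973 and 671 CPM on-Tc and 590, 414 and 237 CPM post-Tc. The lowest larval library, at 4221 CPM, was thus well above the highest adult library, at 973 CPM. The log2 stage difference was 3.01 ± 0.47 (SE) on-Tc (edgeR FDR 0.00115) and 3.99 ± 0.49 post-Tc (edgeR FDR 2.3e-04).

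The abundant member g6034.t1 also had separate stages. In larvae it measured 6580, 8111 and 7184 CPM in controls, 4283, 6053 and 7315 CPM on-Tc and 7756, 7875 and 5761 CPM post-Tc. In adults it measured 675, 798 and 945 CPM in controls, 845, 1126 and 972 CPM on-Tc and 1225, 1012 and 807 CPM post-Tc. All 9 larval libraries lay above all 9 adult ones, with log2 stage differences of 2.46 ± 0.31 (SE) on-Tc (edgeR FDR 3.3e-04) and 2.82 ± 0.32 post-Tc (edgeR FDR 1.3e-04). The fourth, g13146.t1, sat close to the lower edge of the rule at a control ratio of 4.20 and was at 3.39 on-Tc and 3.41 post-Tc. Its larval libraries ran from 3765 to 8760 CPM and its adult libraries from 708 to 2540 CPM, without overlap, and its log2 stage difference was 1.62 ± 0.31 on-Tc (edgeR FDR 0.00395) and 1.78 ± 0.31 post-Tc (edgeR FDR 0.00215).

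**Figure D2:**
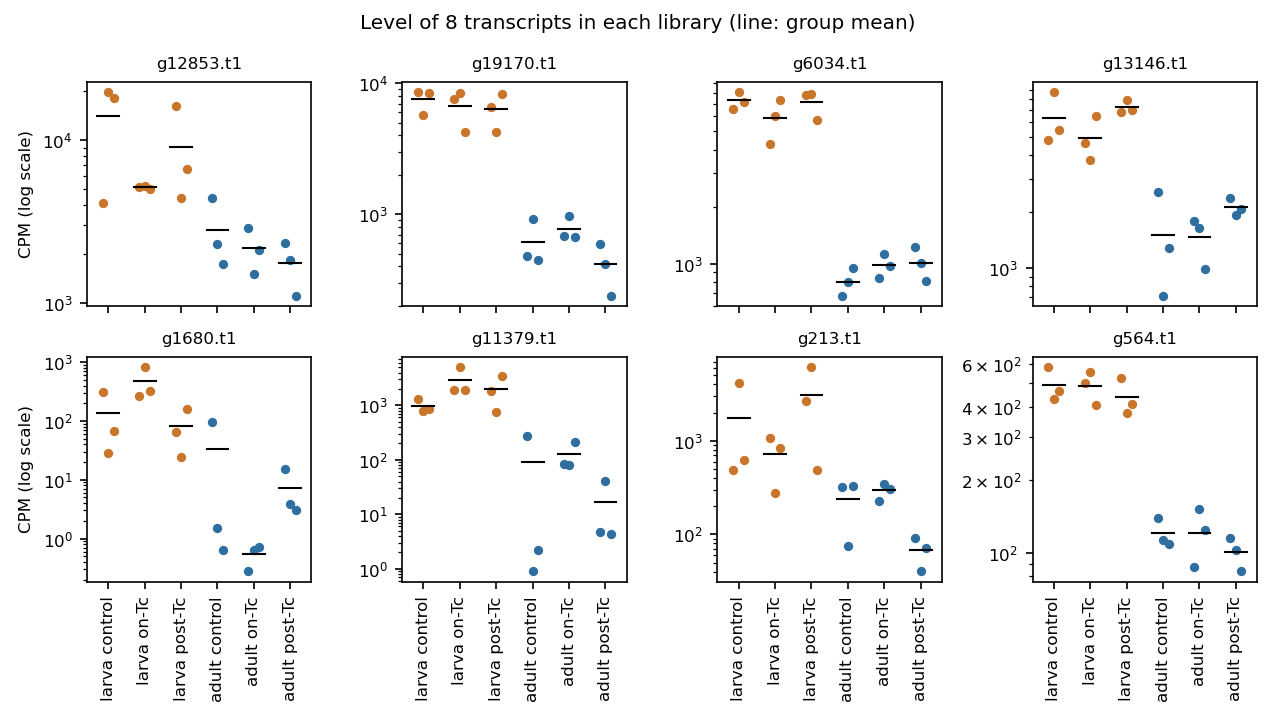
Level of 8 transcripts in CPM (vertical axes, log scale) in each library of the 6 groups (horizontal axis); points are libraries, orange for larvae and blue for adults, and lines are group means (n = 3). In g19170.t1, g6034.t1, g13146.t1 and g564.t1 every larval library lies above every adult one, whereas g12853.t1, g1680.t1 and g213.t1 have larval and adult libraries that overlap.

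The stage difference was tested in the 12 on-Tc and post-Tc libraries, which had no part in the rule. During tetracycline, edgeR (quasi-likelihood F test, FDR threshold 0.05) called 132 of the 167 members higher in larvae than in adults and none lower, while 35 did not pass. Over all 11793 transcripts tested, 12.6% were called higher in larvae and 12.4% lower. After tetracycline, 139 of 167 were higher in larvae, none was lower and 28 did not pass, against 14.4% higher and 15.9% lower of all transcripts. No member was lower in larvae at an unadjusted p under 0.05 in either treated group, and DESeq2 and limma-voom likewise called 0 lower. Among the 2308 transcripts at or above 50 CPM in control larvae, 21.3% were called higher in larvae and 7.15% lower on-Tc, and 31.6% and 7.67% post-Tc. All 167 members passed the filter on low counts. The median log2 difference over the members was 2.70 on-Tc, or 6.52-fold, and 2.99 post-Tc, or 7.95-fold, beside medians of 5.9e-04 and 0.0508 over all transcripts tested.

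Of the members, 120 were called in both, 12 on-Tc alone, 19 post-Tc alone and 16 in neither. The shares of all transcripts in these classes were not counted. These splits do not show that the stage difference changed with treatment. Direct tests of that change are given below. The fitted difference was above 0 for 166 of the 167 members on-Tc and for 167 post-Tc. In levels, every on-Tc larval library lay above every on-Tc adult library for 150 members, where 23.2% of all transcripts tested met that condition, and the same held for 151 members post-Tc, where 20.1% did. Among the 2308 transcripts at or above 50 CPM in control larvae, 36.3% met it on-Tc and 38.5% post-Tc.

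The size of the difference moved more than its direction. Taken as the rule takes it, from group means with 0.1 CPM added, the ratio was 4 to below 16 for 102 members on-Tc, below 4 for 38 and 16 or more for 27. Post-Tc the numbers were 112, 33 and 22. A total of 73 members were within the window in both treated groups, 15 were below 4 in both and 6 were at 16 or more in both.

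**Figure D3:**
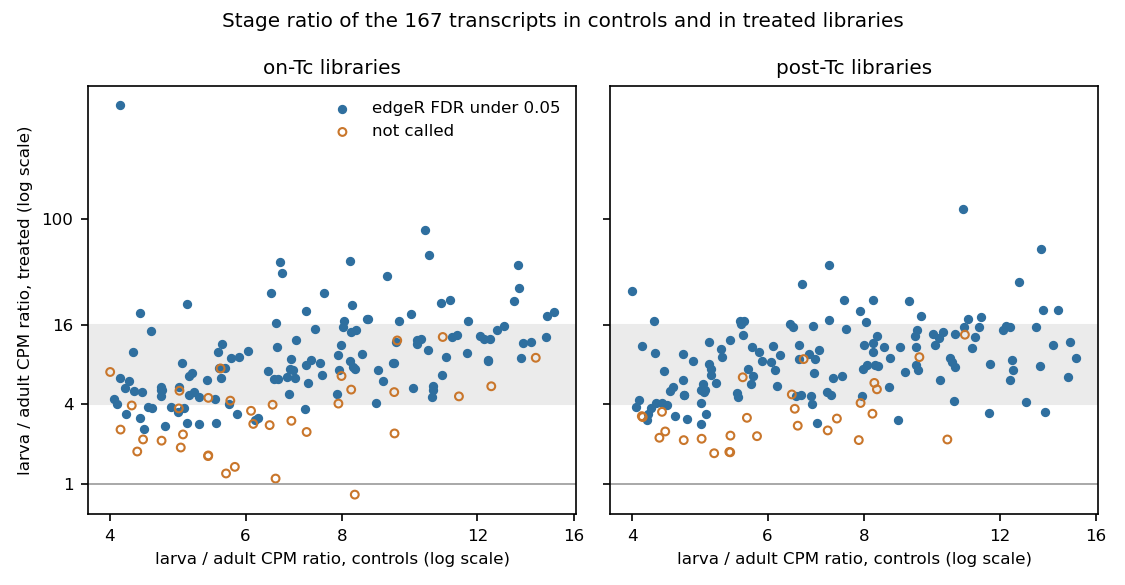
Larva to adult CPM ratio of each of the 167 transcripts in the control libraries that chose them (horizontal axis, log scale) against the same ratio in on-Tc (left) and post-Tc (right) libraries (vertical axis, log scale). Filled points passed edgeR's test and open points did not; the grey band marks 4 to 16, which holds 102 members on-Tc and 112 post-Tc, and 1 member on-Tc lies below 1.

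The largest differences on-Tc were those of g1680.t1 and g15648.t1, both below 1 CPM in some adult libraries. The levels of g1680.t1 were 317, 28.5 and 67.1 CPM in control larvae, 268, 825 and 323 CPM in on-Tc larvae and 64.9, 24.5 and 157 CPM in post-Tc larvae. In adults they were 97.6, 1.53 and 0.626 CPM in controls, 0.276, 0.649 and 0.732 CPM on-Tc and 14.95, 3.91 and 3.04 CPM post-Tc. A single library, control adult 1, held most of the control adult level, so that the control ratio was 4.12 where the on-Tc ratio was 724. The log2 stage difference was 9.70 ± 1.13 (SE) on-Tc (edgeR FDR 1.9e-04; 8.94 without on-Tc larva 2) and 3.60 ± 0.85 post-Tc (edgeR FDR 0.00972). The difference between these 2 values, -6.10 ± 1.20 (SE), did not pass edgeR's test (FDR 0.324) and passed that of DESeq2 (adjusted p 1.8e-04).

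For g15648.t1 the on-Tc levels were 71.2, 32.7 and 87.8 CPM in larvae and 1.83, 0.162 and 0 CPM in adults, with 0 counts in on-Tc adult 3. The log2 difference was 6.29 ± 1.61 (SE; edgeR FDR 0.0164), 9.51 without on-Tc adult 1 and 5.90 without on-Tc adult 2, where it no longer passed (edgeR FDR 0.0570), and it did not pass limma-voom's test (FDR 0.0759). Post-Tc the larvae were at 26.2, 64.0 and 47.7 CPM and the adults at 0.269, 38.0 and 24.98 CPM, which overlap (log2 difference 1.03 ± 1.28; edgeR FDR 0.566). Over all 9 adult libraries this transcript stood at 1.83 CPM or less in 6 and at 24.98 CPM or more in 3.

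Post-Tc, the largest differences were those of g11379.t1 and g15418.t1. The levels of g11379.t1 were 1314, 780 and 850 CPM in control larvae, 1935, 5036 and 1913 CPM in on-Tc larvae and 1838, 751 and 3487 CPM in post-Tc larvae. Its adult levels were 271, 0.898 and 2.24 CPM in controls, 83.4, 82.1 and 216 CPM on-Tc and 4.81, 41.3 and 4.29 CPM post-Tc. The adult libraries ran from 0.898 to 271 CPM, and all of them lay below all larval ones. The log2 difference was 4.49 ± 1.06 (SE) on-Tc (edgeR FDR 0.0114) and 6.87 ± 1.19 post-Tc (edgeR FDR 0.00187), or 8.90 post-Tc without post-Tc adult 2 and 6.22 without post-Tc larva 3.

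For g15418.t1 the post-Tc levels were 37.8, 60.0 and 536 CPM in larvae and 1.55, 4.16 and 4.70 CPM in adults. The post-Tc larval mean was set by larva 3, without which the log2 difference went from 5.93 ± 1.27 (SE; edgeR FDR 0.00606) to 3.75 (edgeR FDR 0.0129). It passed limma-voom's test (FDR 0.0107), and no DESeq2 result was available for it. On-Tc the larvae measured 91.2, 589 and 95.3 CPM and the adults 4.95, 9.57 and 10.98 CPM, again with 1 larval library far above the others and with no overlap between stages (log2 difference 4.88 ± 1.21; edgeR FDR 0.0141).

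At the other end, 1 member had a lower mean in on-Tc larvae than in on-Tc adults, a difference that did not pass the test. The levels of g12544.t1 were 157, 230 and 393 CPM in on-Tc larvae and 495, 204 and 237 CPM in on-Tc adults, a log2 difference of -0.38 ± 0.92 (SE; edgeR FDR 0.797). It had been chosen on control larval levels of 237, 1548 and 1347 CPM against 75.7, 241 and 59.3 CPM in control adults, and in post-Tc larvae it stood at 995, 37.7 and 125 CPM. Its larval libraries thus ranged from 37.7 to 1548 CPM, and both the control and the post-Tc larvae held high and low libraries. The next smallest on-Tc difference was that of g18853.t1, at 0.04 ± 0.54 (SE; edgeR FDR 0.966). Its place in the set came from a single library, since it measured 8.45, 198 and 20.5 CPM in control larvae and no other larval library exceeded 32.9 CPM.

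Post-Tc, the smallest differences were those of g13359.t1 and g6796.t1. For g13359.t1 the larvae were at 80.4, 74.5 and 79.5 CPM and the adults at 38.0, 41.5 and 54.9 CPM, a log2 difference of 0.80 ± 0.39 (SE; edgeR FDR 0.145). The stages did not overlap there. Its adults had been at 12.4, 11.4 and 9.40 CPM in controls. For g6796.t1 the post-Tc larvae were at 36.7, 43.9 and 71.0 CPM and the adults at 39.3, 13.3 and 35.8 CPM (0.82 ± 0.45; edgeR FDR 0.189), while on-Tc it was called higher in larvae at 2.67 ± 0.47 (edgeR FDR 0.00247).

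The choice of members leaned on single libraries: with any 1 of the 6 control libraries left out, 19 to 28 of the 167 no longer met the rule, and 83 met it under all 6 omissions. Of those 83, 70 were called higher in larvae on-Tc and 77 post-Tc, against 62 and 62 of the other 84.

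Over all 18 libraries, 118 of the 167 members had every larval library above every adult library. This condition was met by 7.84% of all transcripts tested and by 19.8% of those at or above 50 CPM in control larvae. In the controls alone 153 members had this order, beside 19.2% of all transcripts tested. The 6 control libraries among the 18 chose the members, so the rule itself favoured it. The counts in this paragraph are thus a description and lend no support. For the 49 other members, leaving out a single library separated the stages in 25. The library lowest among larvae in those 49 was most often post-Tc larva 2, in 17 of them. The highest adult library was most often control adult 1 or on-Tc adult 3, in 10 each. For 163 members all 3 larval group means lay above all 3 adult group means. The share of all transcripts with that order of means was not counted.

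Tetracycline was compared with its withdrawal by setting post-Tc against on-Tc libraries, neither of which chose the members. In larvae edgeR called 0 of the 167 members (smallest FDR 0.595). Unadjusted, 13 members had p under 0.05, of which 9 were higher and 4 lower post-Tc, and 0.00% of all transcripts were called in either direction. DESeq2 and limma-voom also called 0 members in larvae. The median log2 difference over the members was 0.0032, beside 0.0018 over all transcripts. In adults edgeR again called 0 members (smallest FDR 0.127). Unadjusted, 31 had p under 0.05, of which 14 were higher and 17 lower post-Tc. Of all transcripts tested, 0.00848% were called higher post-Tc and 0.00848% lower. For the same comparison DESeq2 called 11 of the 167 members, 4 higher and 7 lower post-Tc, beside 675 of all 11793 transcripts. Limma-voom called 0 members, beside 17 of all transcripts.

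The unadjusted counts were close to those of the whole table. They came to 7.78% of members in larvae and 18.6% in adults, where 7.96% and 17.5% of all transcripts had an unadjusted p under 0.05. In adults the groups did not overlap for 12 members higher and 27 members lower post-Tc, beside 13.4% and 14.1% of all transcripts. In larvae they did not overlap for 4 higher and 9 lower, beside 1.98% and 8.52%. Overlap was judged in CPM by library total, whereas the tests used TMM scaling. With library totals the larval median log2 difference over all transcripts was -0.19, where TMM gave 0.0018. The typical standard error of a member's log2 difference was 0.53 in larvae and 0.54 in adults. Much larger differences also did not pass. In larvae these included -2.32 ± 0.80 (SE) in g1680.t1 and 2.26 ± 0.73 in g213.t1 (edgeR FDR 0.595 for each). In adults g15648.t1 had 4.98 ± 1.52 (edgeR FDR 0.173). The 0 calls thus do not show that single transcripts were unchanged. The median log2 difference over the members in adults was -0.19, beside 0.06 over all transcripts. It was 0.0055 without on-Tc adult 2, -0.076 without post-Tc adult 3 and -0.30 without post-Tc adult 2, so that 1 library set its sign. In larvae the median ran from -0.14 to 0.20 with 1 library left out.

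A change in the stage difference itself, post-Tc minus on-Tc, was called for none of the 167 members by edgeR (smallest FDR 0.324). Unadjusted, 23 had p under 0.05, of which 14 were positive and 9 negative. That was 13.8% of members, beside 10.1% of all transcripts tested. Over all transcripts 0.00% were called positive and 0.00848% negative. The median change over the members was 0.21 on the log2 scale, beside -0.0014 over all transcripts. Its size moved with single libraries, while it stayed above 0 whichever library was left out. The lowest values were 0.017 without on-Tc adult 2 and 0.079 without post-Tc larva 3. The highest were 0.33 without post-Tc adult 2 or without post-Tc larva 2, and 0.35 without on-Tc larva 2. It was 0.094 with library totals and 0.12 with limma-voom. DESeq2 called 5 of the 167 members, 4 positive and 1 negative, beside 161 of all 11793 transcripts, and limma-voom called 0 of either. Named here after their values were seen, those 5 were g1680.t1, g213.t1, g9083.t1, g8656.t1 and g14715.t1. In g213.t1 the change was 4.33 ± 1.03 (SE; edgeR FDR 0.384; DESeq2 adjusted p 0.00504).

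The levels of g213.t1 were 485, 4099 and 621 CPM in control larvae, 1084, 275 and 832 CPM in on-Tc larvae and 2645, 6139 and 485 CPM in post-Tc larvae. In adults they were 320, 74.9 and 328 CPM in controls, 228, 349 and 306 CPM on-Tc and 91.2, 40.2 and 72.2 CPM post-Tc. Post-Tc adults lay below all on-Tc adults, and larvae were high in control 2, post-Tc 1 and post-Tc 2. Its stage difference was 1.15 ± 0.71 (log2, SE) on-Tc (edgeR FDR 0.265) and 5.49 ± 0.85 post-Tc (edgeR FDR 9.4e-04).

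Against the controls only values can be given, since the control libraries chose the members. In larvae the median log2 ratio of the members to control was -0.04 on-Tc and -0.20 post-Tc, beside 0.04 and -0.14 over all transcripts tested. In adults it was -0.08 on-Tc and -0.39 post-Tc, beside -0.08 and -0.13. The group medians of the member means were 219 CPM in control, 246 CPM in on-Tc and 211 CPM in post-Tc larvae, and 33.3, 31.5 and 26.5 CPM in the corresponding adults.

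The members were divided into 2 patterns by their levels in the larval libraries. Grouping the 167 members by the correlation of their log2 CPM over the 9 larval libraries, and cutting into 2, gave pattern A with 72 members, among them g12853.t1, g6034.t1 and g13146.t1, and pattern B with 95 members, among them g19170.t1. These groups were formed from the same values and are a description without a test. Within B the median correlation of 2 members was 0.626 over the 9 larval libraries, within A it was 0.260, and between A and B it was -0.323. The correlation was above 0 for 95.2% of pairs within B, 70.9% within A and 23.0% between them, so A was the looser group. These correlations restate the grouping, which was made from the same libraries.

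The shares of the 2 patterns changed over the larval libraries, while their sum changed less. The patterns were formed on these same libraries, so opposed shares are in part a product of the cut. No other set of transcripts was cut in this way. Pattern B took 9.06% of counts in on-Tc larva 2, 8.67% in post-Tc larva 3, 7.88% in control larva 1, 7.70% in on-Tc larva 1 and 7.23% in control larva 3. It took 5.78% in post-Tc larva 1, 4.40% in control larva 2, 3.91% in on-Tc larva 3 and 3.05% in post-Tc larva 2. In the same order of libraries pattern A took 3.10%, 3.87%, 3.86%, 3.77% and 5.49%, and then 6.25%, 7.35%, 4.75% and 6.77%. A exceeded B in control 2, on-Tc 3, post-Tc 1 and post-Tc 2, which come from all 3 groups, and B exceeded A in the other 5. Both shares are parts of the same library total and are not independent.

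The 4 larval libraries with more A than B had totals of 41321373 to 58865469 counts, within the range of the other 5. By group, B took 6.50% ± 1.85 of counts in control, 6.89% ± 2.67 in on-Tc and 5.84% ± 2.81 in post-Tc larvae, and A took 5.57% ± 1.75, 3.87% ± 0.830 and 5.63% ± 1.54 (SD, n = 3 each). The 3 groups overlapped in both shares.

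**Figure D4:**
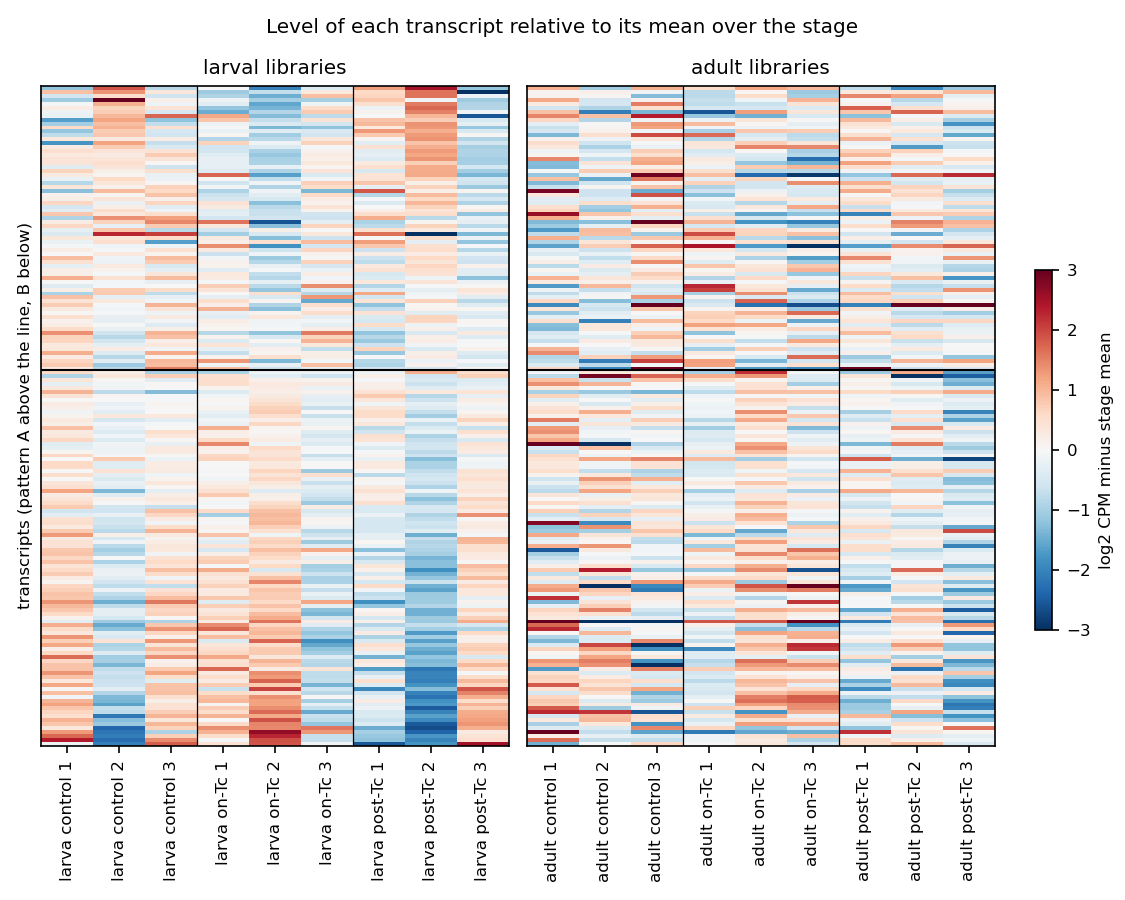
Level of each of the 167 transcripts (rows) in the 9 larval (left) and 9 adult (right) libraries (columns), as log2 CPM, with 0.5 CPM added, minus the transcript's mean over the stage; colours stop at 3 and -3. Rows above the line are pattern A (72) and rows below are pattern B (95). Their median levels go opposite ways in larval control 2 and post-Tc 2 as against on-Tc 2 and post-Tc 3. Rows are in the same order in both panels.

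The median correlation over the 9 adult libraries, which had no part in forming the groups, was 0.197 within B, 0.0613 within A and -0.0204 between them. Pattern A took more counts than B in all 3 post-Tc adults, in control adults 1 and 3 and in on-Tc adult 1. The stage difference was present in both patterns. On-Tc 57 of the 72 A members and 75 of the 95 B members were called higher in larvae, and post-Tc 58 and 81 were. The median ratio was 6.22 for A and 7.48 for B on-Tc, and 7.29 and 8.31 post-Tc.

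The members with the most and the least spread over the 6 treated larval libraries differed as follows. Besides g213.t1, the largest coefficient of variation (SD divided by mean) was 1.15 for g11586.t1, with 177, 605 and 76.7 CPM in on-Tc and 55.9, 36.4 and 165 CPM in post-Tc larvae, while its 9 adult libraries stayed between 11.7 and 30.0 CPM. The smallest was 0.160 for g564.t1, with 501, 554 and 404 CPM in on-Tc larvae and 523, 377 and 408 CPM in post-Tc larvae. Its adults were at 87.4, 151 and 124 CPM on-Tc and 115, 102 and 83.7 CPM post-Tc, and its ratio was 4.09 in controls, 4.02 on-Tc and 4.34 post-Tc. The next smallest, 0.190, was that of g2508.t1. It had 55.7, 46.9 and 61.7 CPM in on-Tc larvae and 72.4, 75.4 and 51.2 CPM in post-Tc larvae, against 8.99, 10.2 and 13.5 CPM and 11.2, 7.62 and 8.99 CPM in the adults. It had the smallest FDR of all members post-Tc (log2 difference 2.85 ± 0.21, SE; edgeR FDR 9.0e-06).

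Library-to-library spread within groups was wide for the members as a whole. The median coefficient of variation within a group, which was not tested against other transcripts, was 44.0% in on-Tc larvae, 47.2% in post-Tc larvae, 41.0% in on-Tc adults and 37.2% in post-Tc adults. For all 2308 transcripts at or above 50 CPM in control larvae it was 25.4%, 28.6%, 19.7% and 20.5%. For the 138 transcripts at that level with a control ratio of 16 or more it was 59.2%, 64.8%, 52.7% and 54.1%. For the adult mirror group of 144 transcripts, described next, it was 43.7%, 46.9%, 32.2% and 26.0%, close to the members in larvae. The lowest count of a member in any library had a median of 393, and 3 members had fewer than 10 counts in some library, all in adults.

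A mirror group of 144 transcripts was at or above 50 CPM in control adults and 4 to below 16 times higher there. Its members were still at least 4 times higher in adults in 63.9% of cases on-Tc and 70.8% post-Tc. Of the 167 members, 77.2% on-Tc and 80.2% post-Tc were at least 4 times higher in larvae. The difference between the 2 sets was not tested.

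Of the 167 members, 163 belonged to genes with 1 listed transcript. The 4 others, or 2.40%, stand beside 0.390% of transcripts at or above 50 CPM in control larvae and 10.1% of all transcripts listed. They were g18072.t2, g7508.t3, g13244.t1 and g14427.t1, named here after their values were seen. The other transcripts of g18072 had control means of at most 2.21 CPM, and those of g13244 and g14427 were at 0 in the controls. In control adults the member g7508.t3 had a mean of 8.87 CPM and g7508.t2 one of 3.53 CPM. How reads shared by near-identical genes were assigned is not stated, so levels of close copies are uncertain.

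Gene numbers 1 apart were found for 8 members, or 4.79% of the set, and 15 members (8.98%) had another within 3 numbers. In the 138 transcripts with a control ratio of 16 or more, 26.1% had a neighbour 1 apart, and in the mirror group of 144 transcripts 10.4% did. The files do not say that numbers follow genome order. The 4 pairs of consecutive numbers were g5658 and g5659, g11004 and g11005, g13244 and g13245, and g15446 and g15447, and all 8 transcripts belonged to pattern B. Over the 9 larval libraries the log2 CPM of the members of a pair had correlations of 0.943, 0.846, 0.742 and 0.929, in that order, and over the 9 adult libraries of 0.853, 0.685, 0.787 and 0.622. Pairs 2 or 3 numbers apart were more mixed. The larval and adult correlations were 0.918 and 0.683 for g11005 and g11008, 0.653 and 0.703 for g11845 and g11847, 0.691 and -0.118 for g20379 and g20382, and -0.765 and 0.018 for g210 and g213.

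The levels of g11004.t1 were 4616, 1939 and 4289 CPM in control, 4485, 5046 and 2641 CPM in on-Tc and 2960, 1905 and 4790 CPM in post-Tc larvae. Those of g11005.t1 were 4016, 2563 and 5093 CPM, 4157, 6502 and 1446 CPM, and 3851, 1003 and 4927 CPM in the same groups. Both were lowest in control 2, on-Tc 3 and post-Tc 2 within their groups. Both were called higher in larvae, with log2 differences of 3.92 ± 0.72 (SE) and 3.09 ± 0.89 on-Tc (edgeR FDR 0.00286 and 0.0281) and 3.54 ± 0.70 and 4.16 ± 0.94 post-Tc (edgeR FDR 0.00415 and 0.00774). In adults g11004.t1 ran from 72.6 to 741 CPM and g11005.t1 from 50.6 to 600 CPM.

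In the pair g15446.t1 and g15447.t1 the same larval libraries were low. On-Tc larvae had 1925, 2406 and 680 CPM of the first and 344, 394 and 92.6 CPM of the second, and post-Tc larvae had 1662, 589 and 2516 CPM and 371, 122 and 426 CPM. Neither passed on-Tc (edgeR FDR 0.0764 and 0.240) and both passed post-Tc (edgeR FDR 0.0268 and 0.0330). The pairs g5658.t1 and g5659.t1, and g13244.t1 and g13245.t1, passed in both treated groups, with log2 stage differences between 2.02 and 3.49.

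The transcripts nearest to each edge of the rule, inside and outside it, were as follows. Just inside the level of 50 CPM were g21047.t1 at 50.3 CPM and g21197.t1 at 51.0 CPM, and just outside were g20854.t1 at 47.6 CPM and g3485.t1 at 47.0 CPM. At the ratio of 4, g19613.t1 (4.004) and g17623.t1 (4.05) were inside, and g8099.t1 (3.99) and g12041.t1 (3.98) outside. At the ratio of 16, g7426.t1 (15.1) and g15491.t1 (14.8) were inside, and g2433.t1 (16.3) and g18185.t1 (16.4) outside.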

How the data were processed

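The data were raw counts, as deposited by the authors, of reads per predicted transcript in 18 libraries of poly(A)-selected midgut RNA. The submitters' processing notes list 4 tools, with no version or role: Trimmomatic, STAR, featureCounts, DESeq2. Build, annotation and strandedness were not given in the sources used here. Among low counts, from 1 to 20, even values made up 63.0% to 71.3%, and among counts above 100 they made up 50.7% to 54.4%, so halved counts were tried.

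Columns were matched to samples by library name, and groups were taken from sample titles. No library duplicated another of its group: chi-square divided by its degrees of freedom was 295.1 to 1387 for pairs within a group. Pairs from different groups were not checked in this way. Levels are CPM by column total. Tests used edgeR 4.0.16 in R 4.3.3 (glmQLFit, glmQLFTest) on the 12 on-Tc and post-Tc libraries, with filterByExpr (minimum count 10, total 15), TMM scaling, a mean per group and Benjamini-Hochberg adjustment over all transcripts tested. Standard errors were derived from the F statistic. The procedure was checked on simulated counts with changes set in on-Tc larvae only, a simpler setting than these data, and the outcome is not reported here. Alternatives used DESeq2 1.42.0 and limma 3.58.1. Patterns came from average linkage on correlations of log2 (CPM + 0.5), with scipy 1.17.1, and figures from matplotlib 3.10.9.

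The members, tests and lists were chosen with earlier results of these data known. In each tested comparison the rule for naming took the 2 largest called differences in each direction without overlap. It also took the 4 members with the most control larval counts, the 2 smallest stage differences, the extremes of larval variation, the longest runs of consecutive gene numbers and the transcripts at the rule's edges. Lists of gene names (digestive enzymes, peritrophins, immune peptides, transporters, markers of other tissues) could not be used without names.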

Additional observations from a re-analysis of the deposited data

How the results depend on the processing

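On-Tc, 123 to 145 of 167 members were called higher in larvae under the alternative tests, scalings, filters, covariates and sample choices, and 102 to 123 with a library left out; post-Tc the ranges were 136 to 152 and 115 to 139. The rule gave 131 to 217 members under its alternatives (167 as reported), and 160 to 186 with a control library left out. With medians in place of means it gave 188, of which 133 were among the 167. Over all transcripts, calls with a library left out were 2015 to 2677 on-Tc and 2278 to 3231 post-Tc, the lowest without post-Tc adult 3, against 2944 and 3576.

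Counts near 0 moved most. For the change in stage difference, DESeq2 called 5 members and 161 transcripts; limma-voom, the replicate block and all 18 libraries gave 0 transcripts against 1, and omissions of a library 0 to 2, with 0 members in each omission. For post-Tc against on-Tc in larvae, DESeq2 called 75 transcripts, and omissions 0 to 33 (33 without post-Tc larva 3), with 0 members. In adults DESeq2 called 11 members and 675 transcripts, limma-voom 17, all 18 libraries 16, the library-name digit 1, and the replicate block and the 6 libraries compared 0, against 2. Omissions gave 0 to 44 (44 without on-Tc adult 2), with 0 members. Library totals in place of TMM moved the median of all transcripts from 5.9e-04 to 0.12 on-Tc (139 members called) and from 0.0018 to -0.19 for post-Tc against on-Tc in larvae. The cause was not tested.

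Among the named transcripts that did not pass, the on-Tc difference of g12544.t1 became 0.11 without on-Tc adult 1 (-0.76 to 0.11 over the omissions). That of g18853.t1 became -0.022 with the replicate block, -0.28 without on-Tc adult 1, -0.08 without on-Tc adult 2 and -0.29 without on-Tc larva 1 (-0.29 to 0.66 over the omissions).

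Replicate numbers did not pair the libraries: 1 of 18 same-numbered pairs had a correlation of deviations above 0.1, against 10 of 36 others, and 0 of 12 libraries correlated best with their own number. The replicate block called 123 members on-Tc and 137 post-Tc, and 0 in the other comparisons. The numbers do not show that libraries came from separate animals. With 3 libraries a group, changes of a few fold in variable members can be missed.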
